A study of Mus musculus with 6 samples.

Results

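The voltage-gated and potassium channel genes of the mouse retina were taken from the per-transcript expression files by gene symbol: symbols that begin with Kcn, a further letter or letters and a number, or with Scn or Hcn and a number, or with Cacna, Cacnb or Cacng, with Kcnj10 left out. The pattern matched 124 symbols in any file. Of these, 114 genes had at least 1 Ensembl transcript listed in every file, among 25935 genes in all, and 113 of them were above 0 (only Cacng5 was at 0 throughout). Each gene's level is its FPKM (fragments counted, scaled to transcript length and to the depth of the library) summed over the transcripts that all 6 files list.

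RNA was sequenced from retinas of wild type C57BL/6 mice (C57BL/6J in the study's methods) at post natal week 5. All 6 libraries came from NMDA-exposed eyes. NMDA, an agonist of ionotropic glutamate receptors, was injected into the vitreous to injure retinal ganglion cells. In 3 libraries (SCF) recombinant stem cell factor, the ligand of the receptor c-kit, followed by the same route 2 days later, and in the other 3 (NMDA) the methods describe PBS at that time. The study's text places the RNA 1 week after this treatment. The sources used here do not say how many mice stand behind a library, so the p-values measure the spread between libraries, and in whole-retina RNA fewer cells of a type and less RNA per cell cannot be told apart.

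Potassium channels set the resting potential and end each spike. Voltage-gated sodium channels carry the action potentials of ganglion cells and some amacrine and bipolar cells, and voltage-gated calcium channels open transmitter release. Rods and cones do not spike in the usual way: a Kv current shapes their response to light, HCN channels, opened by hyperpolarization, shape its time course, and an L-type calcium channel at the ribbon synapse drives steady glutamate release. A channel is built from pore-forming subunits and accessory subunits, and the results follow that order.

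Sequencing depth and transcript lists bear on every value. The fragment total that scales FPKM was inferred from the values themselves. It lay between 3404336 and 4440581 per library, 14.1 to 18.2% of the clean read pairs. Fragments recovered on annotated transcripts numbered 2826014 to 3742304 per library. The files use different transcript lists: list A for NMDA replicate 1 and all 3 SCF libraries, and list B for NMDA replicates 2 and 3. Values were taken from the 46933 Ensembl transcripts that the lists share. Both list B libraries stood apart from the other 4 on the first principal component of all genes (53.3% of the variance). Of the channel genes, 43 had more than 10 fragments in every library and 21 had 3 or fewer in every library.

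Kcnv2, which encodes the silent Kv8.2 subunit that joins Kv2 subunits in photoreceptors, stood far above the other channel genes. Its FPKM was 652, 530 and 703 in the NMDA libraries and 769, 749 and 656 in the SCF libraries, so the groups overlapped. The 4 rod markers summed to 548 to 743 FPKM in NMDA and 882 to 1028 FPKM in SCF libraries, and their part in the Kcnv2 level was not tested. Kcnv2 made up 49.6% of the summed FPKM of all channel genes, and rank 47 among the 25202 genes above 0. All of it came from 1 coding transcript of the gene on chromosome 19 (27322588 to 27337179, plus strand, GRCm38), with 10761 to 15944 fragments per library. Kcnv2 with Cacna2d4, Cacna1f and Kcna5 made up 66.5% of the sum. In all, 16 channel genes were at 10 FPKM or more on average, 45 lay between 1 and 10, and 52 were under 1.

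**Figure D1:**
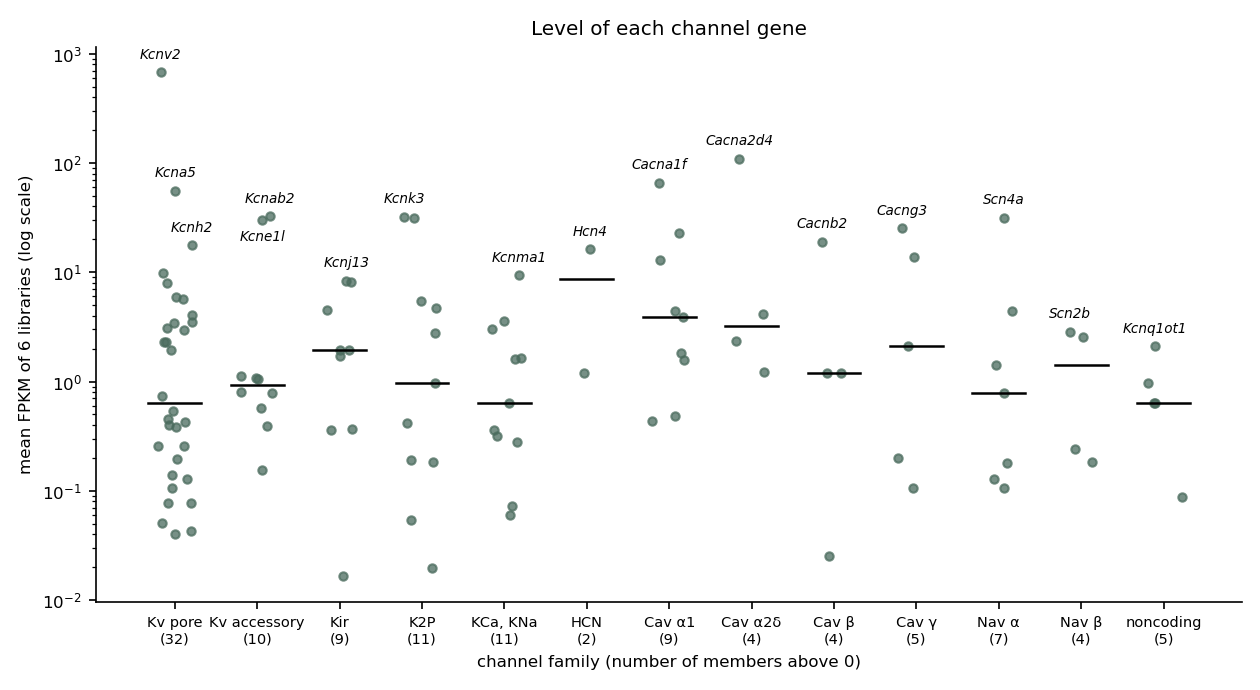
Mean FPKM over the 6 libraries (log axis) of the 113 channel genes above 0, grouped by family with the number of genes in parentheses; each point is a gene and each bar the family's median. Kcnv2, at 676 FPKM, lies above every other gene, and the family medians lie between 0.633 and 8.69 FPKM.

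The 16 genes of 10 FPKM or more differed in the transcripts behind their values. In 10 of them, among them Kcnv2, Kcna5, Kcnk1, Scn4a and Hcn4, over 90% of the level came from protein-coding transcripts. In the other 6, Cacna2d4, Cacna1f, Kcnab2, Cacna1g, Cacnb2 and Cacna1h, under 10% did. The rest lay in transcripts annotated as retained intron (an intron stays in the RNA) or processed transcript (no open reading frame assigned). Over all channel genes the coding share of the summed FPKM was 77.6%, and 55.5% without Kcnv2. Of the 114 genes, 91 had a coding transcript in both lists.

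**Figure D2:**
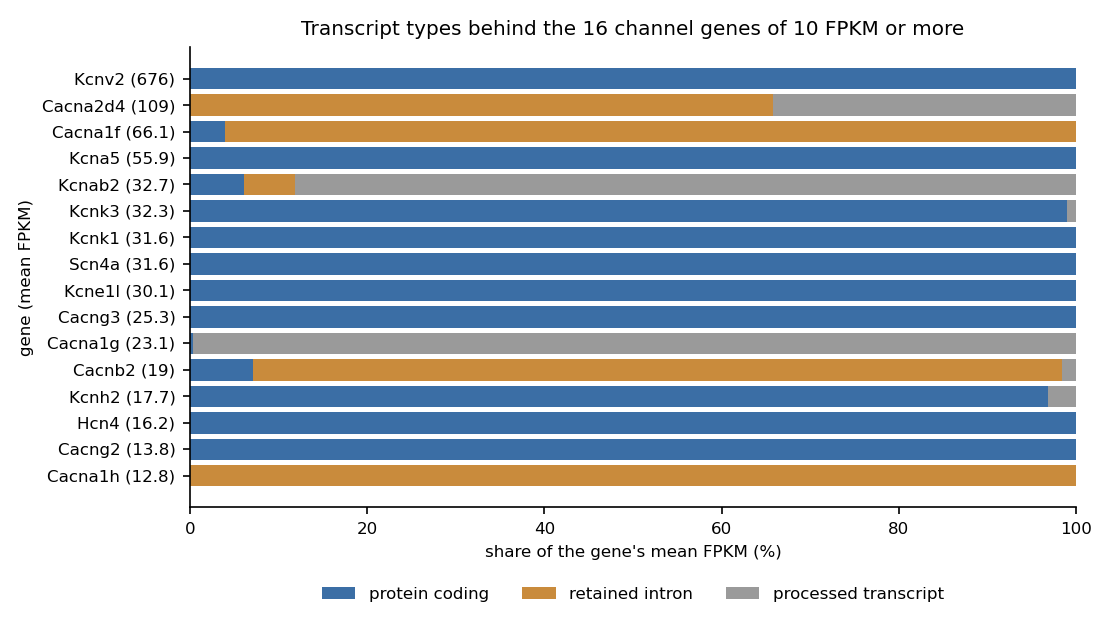
Share of each gene's mean FPKM (percent, horizontal axis) that came from protein-coding, retained-intron and processed transcripts, for the 16 channel genes of 10 FPKM or more, with the mean FPKM in parentheses. Kcnv2 and Kcna5 are coding throughout, whereas Cacna2d4 and Cacna1h have no coding share and Cacna1f has 3.96%.

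Among the calcium channel pore subunits, Cacna1f, the L-type α1 subunit of photoreceptor synapses, had the highest level. Its FPKM was 35.4, 79.1 and 60.1 in NMDA and 77.9, 64.0 and 80.4 in SCF libraries. NMDA replicate 1 was the lowest, and the other NMDA libraries lay within or close to the SCF range. These sums include a retained-intron transcript that differed by transcript list, at 1.15, 18.7 and 18.1 FPKM in NMDA and 2.74, 1.80 and 1.96 FPKM in SCF libraries. Counted over the 2 coding transcripts of Cacna1f alone, the level was 2.64 ± 1.81 FPKM (SD, n = 3) in NMDA and 2.60 ± 0.395 (SD, n = 3) in SCF libraries. The T-type subunits Cacna1g and Cacna1h followed, with means of 23.1 and 12.8 FPKM. Cacna1a, the P/Q-type subunit, averaged 4.40 FPKM, with a coding share of 0.361%. Cacna1s, the skeletal muscle subunit, did not exceed 4 fragments in a library. Of the 9 α1 genes, 8 had a positive fold change (49.1% of all genes had one). In 6 of 9 all 3 SCF libraries lay above NMDA replicate 1 (23.8% of all genes), a count that rests on 1 NMDA library. Both counts include noncoding transcripts, and Cacna1d, Cacna1h and Cacna1s had no coding transcript in both lists. Over coding transcripts, mean FPKM in NMDA and SCF was 0.0951 and 0.0713 for Cacna1g and 0.0317 and 0 for Cacna1a. It was 1.27 and 1.61 for Cacna1c, 1.63 and 1.85 for Cacna1e and 0.244 and 0.626 for Cacna1b. The summed α1 level differed by 0.34 on the log2 scale (exact permutation p = 0.4, 2-sided), less than the spread between libraries.

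Among the accessory calcium channel subunits, Cacna2d4, the α2δ partner of the photoreceptor channel, was at 83.8, 171 and 107 FPKM in NMDA and at 114, 79.5 and 101 FPKM in SCF libraries. NMDA replicate 2 was highest, and the groups overlapped. These sums include a processed transcript that differed by transcript list. It was at 0.684, 84.5 and 48.4 FPKM in NMDA and 0.792, 1.67 and 2.02 FPKM in SCF libraries. No coding transcript of Cacna2d4 was in both lists. Cacnb2, its β partner, was at 17.8, 17.6 and 36.3 FPKM in NMDA and at 14.5, 15.7 and 11.9 FPKM in SCF libraries. The groups did not overlap, and NMDA replicate 3 stood apart from the others. A retained-intron share of 91.3% lay behind the Cacnb2 level. It set the β family, whose sum was 25.9 ± 10.1 FPKM in NMDA (SD, n = 3) and 16.8 ± 1.21 in SCF (SD, n = 3). The exact permutation p of 0.1 is the smallest that 3 against 3 libraries allow, and it was 0.722 after Benjamini-Hochberg adjustment over the 13 families. Of the γ subunits, Cacng3 (25.3 FPKM) and Cacng2 (13.8 FPKM), both known as partners of AMPA receptors as well, came from coding transcripts, with log2 differences of 0.22 ± 0.21 and -0.12 ± 0.18 (SE, limma).

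The delayed rectifier and related Kv genes spread from Kcnv2 down to means of 0.0404 FPKM for Kcnh7 and 0.0425 FPKM for Kcnc2. Kcnh2, the ERG-type channel, was at 19.9, 13.5 and 12.7 FPKM in NMDA and 22.1, 17.2 and 21.1 FPKM in SCF libraries. Its NMDA replicate 1 lay inside the SCF range and both list B libraries below it. Kcna1, a Kv1 subunit of axons, was at 4.02, 4.28 and 5.23 FPKM in NMDA and 3.13, 1.73 and 2.44 FPKM in SCF libraries. The groups did not overlap for Kcna1, at a log2 difference of -0.70 ± 0.29 (SE). Kcnh5, an EAG-type channel, was at 7.67, 8.30 and 16.8 FPKM in NMDA and 6.76, 4.96 and 3.28 FPKM in SCF libraries, with a log2 difference of -0.95 ± 0.36 (SE). Its groups did not overlap either, with NMDA replicate 3 farthest out. Kcna3, at 4.89 to 10.4 FPKM in NMDA and 3.17 to 5.06 FPKM in SCF libraries, overlapped. The study's enrichment analysis enters Kcna3 as up, whereas its log2 difference here was -0.71 ± 0.32 (SE). In 23 of the 32 Kv pore genes the fold change was negative (50.9% of all genes had a negative one), and 9 of the 23 had 10 fragments or fewer in every library. The family's summed FPKM, led by Kcnv2, was 805 ± 88.9 in NMDA and 810 ± 65.3 in SCF libraries (SD, n = 3 each, exact permutation p = 1).

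Of the Kv accessory genes, Kcnab2, a cytoplasmic Kvβ subunit, was at 30.6 to 35.5 FPKM in NMDA and 24.7 to 36.7 FPKM in SCF libraries. Kcne1l, a single-pass modulator, was at 35.6, 20.7 and 10.9 FPKM in NMDA and 40.9, 38.6 and 33.7 FPKM in SCF libraries. NMDA replicate 1 shared the SCF range for Kcne1l, and both list B libraries lay below all list A libraries. Kcnip3, a calcium-binding Kv4 partner, averaged 1.13 FPKM.

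Among the inward rectifiers, which hold the resting potential near that of potassium, Kcnj11 and Kcnj12 were higher in all SCF than in all NMDA libraries. Kcnj11, the pore of the ATP-sensitive channel, was at 7.29, 6.40 and 6.02 FPKM in NMDA and 9.69, 8.74 and 11.1 FPKM in SCF libraries. NMDA replicate 1, which shares the list of the SCF libraries, lay below all of them, and both list B libraries lay lower still. The log2 difference was 0.52 ± 0.21 (SE). Counted over its coding transcript alone the groups overlapped, with 4.59 to 5.42 FPKM in NMDA and 4.48 to 7.45 FPKM in SCF libraries. Kcnj12, a strong rectifier, was at 0.769, 1.65 and 0.688 FPKM in NMDA and 2.42, 2.13 and 2.65 FPKM in SCF libraries, on 6 to 21 fragments per library. Its log2 difference was 0.77 ± 0.32 (SE), and its NMDA libraries did not sort by list. Kcnj2, another strong rectifier, went the other way, at 4.86, 4.76 and 6.08 FPKM in NMDA and 3.75, 4.43 and 3.24 FPKM in SCF libraries. Kcnj13, known from the pigment epithelium, was at 9.95, 11.1 and 6.21 FPKM in NMDA and 5.98, 7.01 and 10.02 FPKM in SCF libraries. The summed pigment epithelium markers (4 genes) ranged from 191 to 796 FPKM in NMDA and from 709 to 935 FPKM in SCF libraries. Most of that sum was Ttr, at 779, 356 and 176 FPKM in NMDA and 694, 919 and 827 FPKM in SCF libraries. Lrat was at 9.87 to 15.7 FPKM in NMDA and 12.5 to 14.6 FPKM in SCF libraries. Rpe65 and Best1 did not exceed 2.09 FPKM. Kcnj14 did not exceed 9 fragments. The summed rectifiers differed by 0.08 on the log2 scale (exact permutation p = 0.5).

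The tandem-pore K2P channels carry background potassium current. Kcnk1 was at 24.8 to 33.3 FPKM in NMDA and 29.4 to 39.0 FPKM in SCF libraries, and Kcnk9 and Kcnk4 averaged 5.50 and 4.69 FPKM. Kcnk3, an acid-sensitive member, was at 52.6 FPKM in NMDA replicate 1 but at 1.19 and 2.37 FPKM in replicates 2 and 3. In the SCF libraries Kcnk3 was at 45.5, 47.6 and 44.8 FPKM. The K2P sum, which holds Kcnk3, differed by 0.76 on the log2 scale (exact permutation p = 0.3), and against NMDA replicate 1 alone the K2P sum differed by 0.03. Among calcium- and sodium-activated channels, Kcnma1 (the BK pore) was at 13.2, 8.39 and 3.93 FPKM in NMDA and 11.1, 8.43 and 11.3 FPKM in SCF libraries, with a coding share of 2.10%. Kcnmb4 averaged 3.61 FPKM and Kcnt1 2.996 FPKM, while Kcnmb1 stayed at 8 fragments or fewer. No coding transcript of Kcnt1 was in both lists.

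Of the HCN genes, Hcn4 was at 16.5, 13.5 and 13.5 FPKM in NMDA and 18.3, 16.5 and 18.8 FPKM in SCF libraries, with a log2 difference of 0.29 ± 0.18 (SE). The lowest SCF value was only just above NMDA replicate 1, and the list B libraries were lowest. Hcn3 was listed in list B only, at 16.7 and 13.7 FPKM in NMDA replicates 2 and 3.

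On shared transcripts the sodium channel genes averaged 4.43 FPKM (Scn7a) or less, apart from Scn4a, the α subunit of skeletal muscle. Scn7a was higher in the list B libraries, at 11.6 FPKM in each. Scn4a was at 25.4, 20.5 and 43.1 FPKM in NMDA and 35.7, 27.5 and 37.2 FPKM in SCF libraries. The Scn4a value came from 1 coding transcript with 537 to 1263 fragments per library. The 3 skeletal muscle markers with a value summed to 6.19 to 16.1 FPKM. Among them Acta1 was at 3.43 to 11.4 FPKM and Mylpf at 1.15 to 7.60 FPKM, and Ckm did not exceed 0.316 FPKM. The α subunits Scn1a, Scn2a and Scn3a of central neurons had no coding transcript in both lists, so their values come from retained-intron or processed transcripts alone. On these, Scn1a had 4 fragments or fewer, Scn3a 7 or fewer and Scn2a 11 or fewer in each library. Scn8a, the main sodium channel of ganglion cell axon initial segments, averaged 1.42 FPKM on shared transcripts. A coding transcript of Scn8a listed in list B only was at 10.5 and 9.93 FPKM in NMDA replicates 2 and 3. The β subunit Scn2b was at 4.23, 2.92 and 3.39 FPKM in NMDA and 2.70, 1.79 and 2.17 FPKM in SCF libraries, and the groups did not overlap. Scn4b averaged 2.57 FPKM, and its groups overlapped. The summed β subunits differed by -0.35 on the log2 scale (exact permutation p = 0.2). NMDA replicate 1 had the highest β sum, 8.33 FPKM, and also the highest sum of 6 ganglion cell markers, 460 FPKM against 223 and 239 in the other NMDA and 259 to 316 in the SCF libraries. Sncg, Nefl, Nefm and Thy1 were highest in NMDA replicate 1, and Rbpms was at 1.125 FPKM there against 0.968 and 1.29 FPKM in NMDA replicates 2 and 3. Slc17a6 separated the libraries by transcript list. It was at 0.142, 5.90 and 8.74 FPKM in NMDA and 0.0706, 0 and 0.353 FPKM in SCF libraries. The part of ganglion cell number in these values was not tested. The symbol pattern also caught 5 noncoding RNAs, led by Kcnq1ot1, the RNA that overlaps Kcnq1 on the opposite strand. They summed to 4.18 ± 1.54 FPKM in NMDA and 4.65 ± 1.47 FPKM in SCF libraries (SD, n = 3 each, exact permutation p = 0.5). The sources used here do not state whether strand was used in counting, so reads of overlapping genes cannot be told apart.

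**Figure D3:**
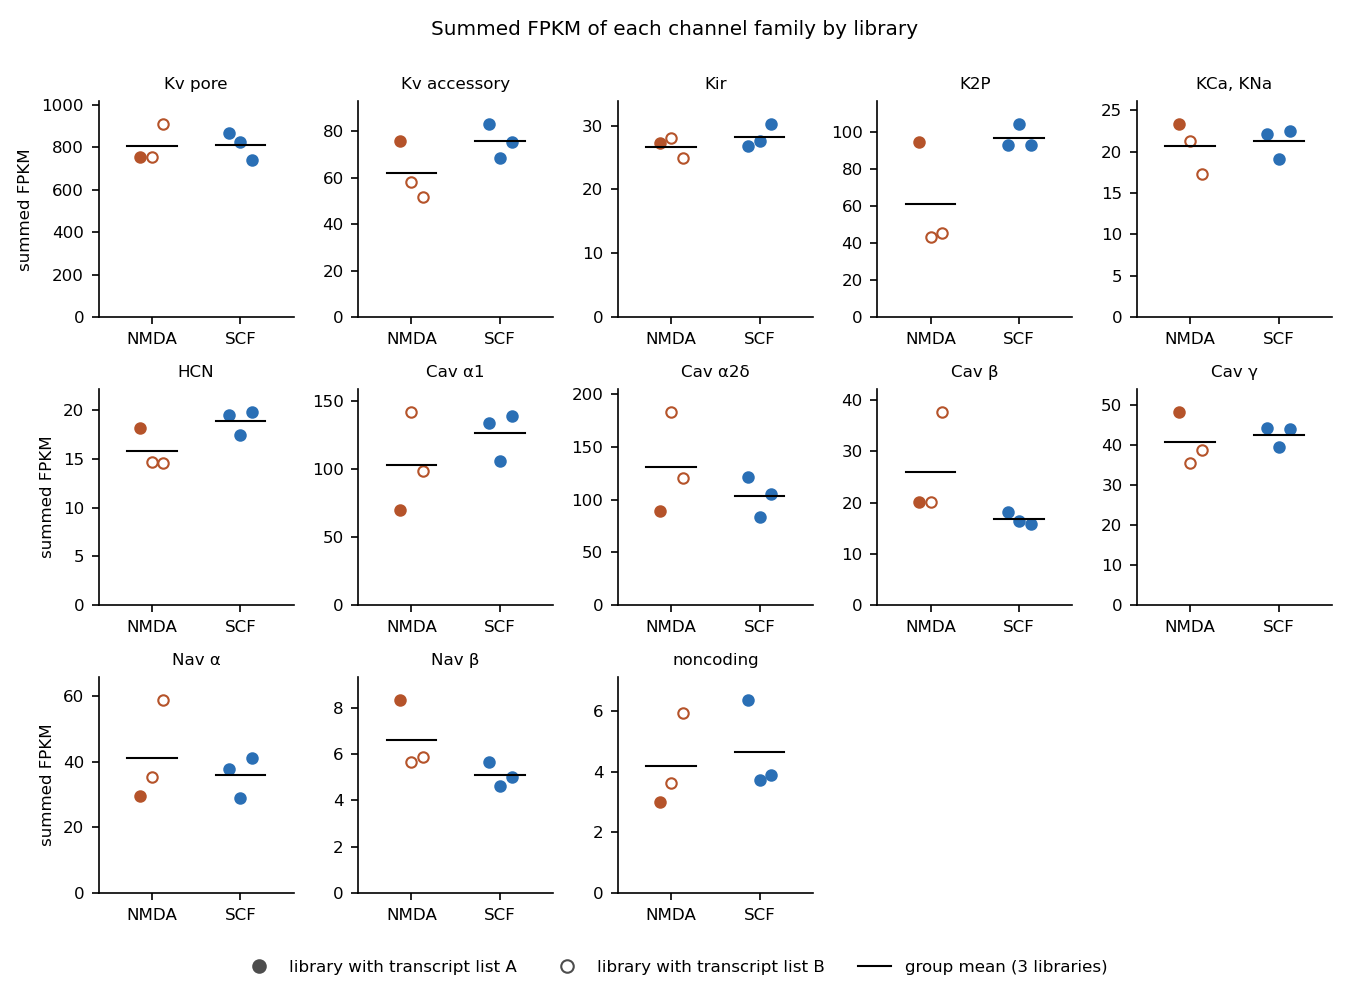
Summed FPKM (vertical axis from 0) of each of the 13 channel families in the 3 NMDA and 3 SCF libraries; filled points are libraries of transcript list A, open points of list B, and bars are group means. In the K2P panel NMDA replicate 1 (94.5 FPKM) lies with the SCF libraries (92.7 to 104) and the list B libraries lie at 43.4 and 45.2.

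Across all channel genes no difference between SCF and NMDA passed the adjusted threshold. With limma on log2(FPKM + 1), 0 of 113 channel genes had an adjusted p of 0.05 or less, and the background over the 25202 genes tested was 0%. The smallest adjusted p of a channel gene was 0.536, and limma-voom on the recovered fragments also called 0. The study's own enrichment analysis enters the channel genes Kcna3 and Cacna1a as up with SCF treatment. Here Kcna3 went the other way, and Cacna1a had a log2 difference of 0.24 ± 0.53 (SE, limma). At an unadjusted p of 0.05 or less in limma, 3 channel genes were higher in SCF, Kcnj11, Kcnj12 and Kcnk3 (2.65% of the channel genes, against 4.33% of all genes). In the other direction, 7 were lower, among them Kcna1, Kcna2, Kcna5, Kcnc4, Kcnh5 and Scn3a (6.19%, against 4.9% of all genes). Both shares are near the background. The median log2 difference was -0.06 for channel genes and -0.01 for all genes, with 48 of the 113 positive. The channel genes together summed to 1343 ± 83.6 FPKM in NMDA and 1385 ± 79.8 FPKM in SCF libraries (SD, n = 3 each), a log2 ratio of 0.04 (exact permutation p = 0.6). Without Kcnv2 the log2 ratio was -0.11. The 8 lens markers with a value summed to 23.4 to 303 FPKM in NMDA and to 5052, 458 and 9499.7 FPKM in SCF replicates 1, 2 and 3, and their part in these differences was not tested.

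Counted by overlap of the groups instead, 4 channel genes had all SCF libraries above all NMDA libraries, Hcn4, Kcne4, Kcnj11 and Kcnj12 (3.54%, against 7.63% of all genes). In 13 genes all SCF libraries lay below all NMDA libraries, among them Cacnb2, Kcna1, Kcna2, Kcna5, Kcnh5, Kcnj2, Kcnv1, Scn1a, Scn2b, Scn3a and Scn9a (11.5%, against 6.45% of all genes). Of these 13, Kcnv1, Scn1a, Scn3a and Scn9a had 8 fragments or fewer in every library, and in Kcna1, Kcna2, Kcna5 and Kcnh5, among others, both list B libraries also lay above all list A libraries. Of the 4 higher genes, Hcn4 and Kcnj11 were lower in both list B libraries than in all list A libraries, and Kcne4 had 3 fragments or fewer in every library.

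**Figure D4:**
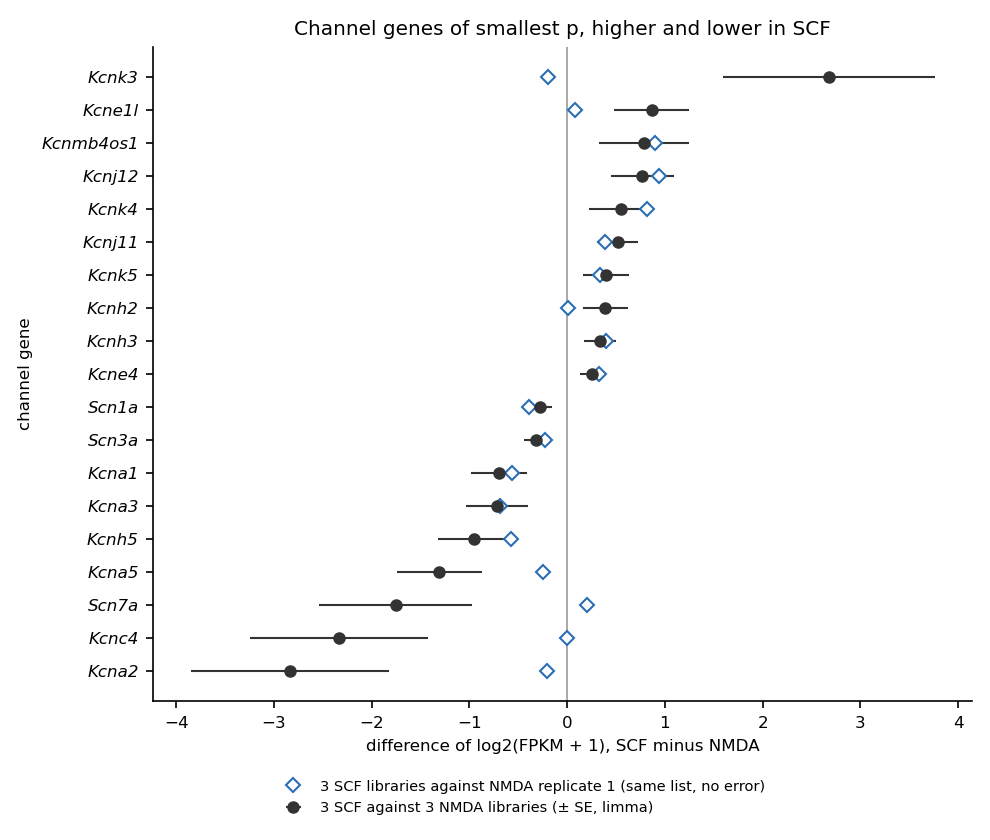
Difference of log2(FPKM + 1), SCF minus NMDA (horizontal axis), for the 10 higher channel genes of smallest limma p and 9 of the 10 lower ones; filled points with bars are all 6 libraries ± SE, and open diamonds are the 3 SCF libraries against NMDA replicate 1, which shares their transcript list. Kcnk3 goes from 2.68 to -0.19 and Kcna2 from -2.83 to -0.20, while Kcnj12 goes from 0.77 to 0.94 and Kcna3 from -0.71 to -0.68.

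Differences of 2-fold or more on the FPKM + 1 scale, with an unadjusted p of 0.05 or less in limma, were found in 5 channel genes. Kcnk3 was higher in SCF (0.885% of the channel genes, against 1.41% of all genes), and 4 were lower, among them Kcna2, Kcna5 and Kcnc4 (3.54%, against 2.63% of all genes). Each of the 5 also separated the libraries by transcript list. The count depends on the added 1. Kcnj12 (mean FPKM 1.03 in NMDA and 2.40 in SCF), Kcnh5 (10.9 and 5.00) and Scn3a (0.254 and 0) stayed under 2-fold on FPKM + 1. Of these, Kcnj12 and Scn3a did not separate the libraries by list. List B libraries lay above all list A libraries in 14 channel genes (12.4%, against 14.4% of all genes) and below them in 8 (7.08%, against 10.9% of all genes). Of the channel genes, 5 were at least 2-fold higher in list B than in list A libraries, with no overlap on the FPKM + 1 scale, among them Kcna2, Kcna5, Kcnc4 and Scn7a (4.42%, against 2.29% of all genes). Kcnk3 was at least 2-fold lower (0.885%, against 0.869% of all genes). Of the 10 channel genes at an unadjusted p of 0.05 or less, 5 belong to these 6. Kcna2, a Kv1 subunit of axons, was at 0.213 FPKM in NMDA replicate 1, at 16.6 and 19.0 FPKM in replicates 2 and 3, and at 0.0504, 0.118 and 0 FPKM in the SCF libraries. Kcna5, at 34.7, 120 and 93.2 FPKM in NMDA and 32.9, 25.4 and 29.1 FPKM in SCF libraries, has 1 coding transcript, and 338 fragments in NMDA replicate 1 set against 1367 and 1185 in replicates 2 and 3. NMDA replicate 1 lay close to the SCF libraries for both genes. Without NMDA replicate 1, limma gave an adjusted p of 0.05 or less for Kcnk3, higher in SCF (0.885% of the channel genes, against 1.13% of all genes), and for 5 genes lower in SCF, among them Kcna2, Kcna5, Kcnc4 and Scn7a (4.42%, against 2.52% of all genes). The NMDA group then holds list B libraries only, so list and treatment cannot be told apart.

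Kcnc4, a Kv3 subunit of fast-firing neurons, had 155 and 163 fragments in NMDA replicates 2 and 3 and 0 in the 4 list A libraries. It was at least 43.4-fold higher in the list B libraries, with 3 fragments per library as the floor. Scn7a, a salt-sensing relative of the sodium channels, was at 0.640, 11.6 and 11.6 FPKM in NMDA and at 0.670 to 1.27 FPKM in SCF libraries. For all 6 genes the value of NMDA replicate 1 was nearer to every SCF library than to either list B library. Since list B holds NMDA libraries only, these differences cannot be told apart from the list by comparing replicates 2 and 3 with SCF.

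Single transcripts showed the same step inside genes whose sums hid it. A processed transcript of Cacna2d4 (chromosome 6, 119248784 to 119301418, plus strand) was at 0.684 FPKM in NMDA replicate 1, 84.5 and 48.4 FPKM in replicates 2 and 3 and 0.792, 1.67 and 2.02 FPKM in the SCF libraries. A retained-intron transcript of Cacna1f (chromosome X, 7607098 to 7618109, plus strand) was at 1.15, 18.7 and 18.1 FPKM in NMDA and 2.74, 1.80 and 1.96 FPKM in SCF libraries. The step genes are spread over the genome: Kcnk3 lies on chromosome 5, Kcna5 on 6 and Scn7a on 2. Kcna2 and Kcnc4 both lie on chromosome 3 (107101146 to 107115005, plus strand, and 107438303 to 107459552, minus strand). Kcna3 lies beside them at 107036169 to 107038070 and showed no step.

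**Figure D5:**
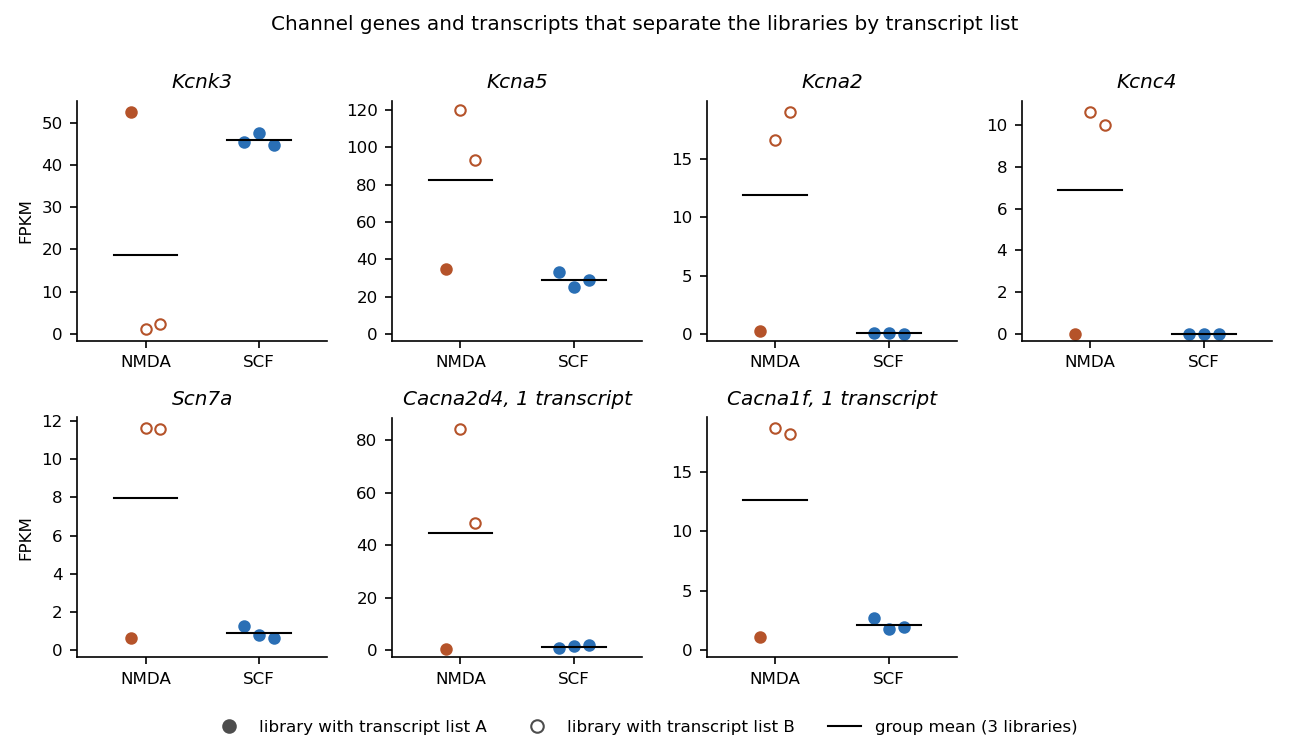
FPKM (vertical axis) in the 3 NMDA and 3 SCF libraries of 5 channel genes and of 1 transcript each of Cacna2d4 and Cacna1f that separate the libraries by transcript list; filled points are list A, open points list B, bars are group means. In every panel NMDA replicate 1 lies close to the SCF libraries, and NMDA replicates 2 and 3 lie apart from them.

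Other channel genes could be read in part of the libraries only. There were 10 symbols listed in 1 list alone. Of those in list A only, Kcnj9, a G-protein-gated rectifier, was at 10.4 FPKM in NMDA replicate 1 and 13.99, 8.48 and 14.8 FPKM in the SCF libraries, and Kcnk18 and Kcnq5 were at 0. Kcnc1, the Kv3 subunit best known from fast-spiking neurons, had its coding transcript in list B only, at 19.1 and 20.6 FPKM in NMDA replicates 2 and 3, while its shared transcript did not exceed 4 fragments in a library. The coding transcript of Kcnab3 was likewise in list B only, at 14.27 and 12.95 FPKM. These values have no counterpart in the SCF libraries, so no comparison was made.

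Within the 4 libraries of list A, which leave 1 NMDA library, the channel genes were counted against NMDA replicate 1. All 3 SCF libraries lay below NMDA replicate 1 in 37 of the 113 genes (32.7%, against 23.6% of all genes) and above it in 22 (19.5%, against 23.8% of all genes). The genes below include 16 of the 32 Kv pore genes, among them Kcna1, Kcna2, Kcna3, Kcna5 and Kcnd2, and the sodium channel genes Scn1a, Scn2b, Scn3a, Scn3b, Scn4b and Scn9a. The genes above include Cacna1a, Cacna1c, Cacna1e, Cacna1f, Cacna1g and Cacna1h. Of these, Cacna1h had no coding transcript in both lists, and the coding share was 0.361% for Cacna1a and 0.360% for Cacna1g. In a limma fit of these 4 libraries, with the spread of the lone NMDA library taken from the SCF libraries, 0 of 107 channel genes had an adjusted p of 0.05 or less, against 0% of all genes higher and 1.3% lower in the same fit. At an unadjusted p of 0.05 or less in this limma fit, Cacna1f, Cacna1g, Kcne4 and Kcnj12 were higher (3.74%, against 4.89% of all genes). Lower were Kcnh7, Kcns3, Scn1a and Scn3a (3.74%, against 6% of all genes), each with 7 fragments or fewer in every library. The part of NMDA replicate 1 alone in these counts was not tested.

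Genes that work beside these channels were counted in the same way. Of a list of 45 pumps, scaffolds and other channels, 40 could be tested, and 3 were higher (among them Atp1b3 and Atp2b1) and 3 lower (Stac2, Cngb3 and Slc24a2) in SCF at an unadjusted p of 0.05 or less in limma (against 4.33% of all genes higher and 4.9% lower), with no adjusted p below 0.536. Among them the cone photoreceptor channel subunit Cngb3 and the calcium pump Atp2b1 stepped with the transcript list. Cngb3 was at 0.125, 22.4 and 20.2 FPKM in NMDA and at 0.0620, 0 and 0 FPKM in SCF libraries. The rod channel subunit Cngb1 was at 88.9, 128 and 89.0 FPKM in NMDA and 140, 122 and 141 FPKM in SCF libraries, and Kcnj10, the main rectifier of Müller glia, was at 59.9 to 78.8 FPKM in NMDA and 68.2 to 79.7 FPKM in SCF libraries.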

How the data were processed

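RNA-seq was performed on 3 NMDA and 3 SCF retinal libraries, grouped by their titles. Poly(A) RNA was captured on oligo (dT) beads and run on an Illumina HiSeq. The authors filtered the reads and deposited FPKM values per transcript for each library without pooling, and a table of sequencing totals whose deposited counts of clean reads were used for depth. The aligner and counter are not given in the sources used here. The submitters' processing notes name the build mm9, but 289 of the 296 transcripts of channel genes had the positions of GENCODE M21 on GRCm38, which is used for coordinates and transcript types. Transcripts of a merged assembly, 8.85 to 11.4% of the FPKM of a library, carry no gene name and were left out. Of the totals table, 6 columns were not used.

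Gene levels are sums of FPKM over the transcripts that both lists share. All 25202 genes above 0 were fitted with limma 3.58.1 (R 4.3.3) on log2(FPKM + 1) with a variance trend and condition only. Fold changes on this scale understate changes of low genes. P-values were adjusted after Benjamini and Hochberg over all genes. Sums were compared by 2-sided exact permutation tests (Python 3.11.15, scipy 1.17.1), adjusted over 13 families. The study called genes at an adjusted p of 0.001 with at least a 2-fold change. Value times transcript length gave whole fragments (within 0.05 of a fragment or the file's rounding) for 98.4 to 98.5% of values. Floors are 3 fragments and cover counting error only. Fragments without molecular identifiers are not independent molecules. The fit was tested on simulated data with known changes. The genes named are, in each family, the 3 of highest mean, the 10 higher and 10 lower of smallest unadjusted p, a list of retinal channel genes, those that end a range, and others that separate groups or lists or are read in 1 list only, which were chosen after their values were seen. A few genes that these rules name are not reported here. The members and lists were chosen with earlier results of these data known. Same-numbered libraries of the 2 groups had correlations of deviations between -0.064 and -0.039, so the numbers were not taken as pairs. Alternatives were another pseudocount, a filter, other scalings, a replicate block, each library left out, limma without trend, limma-voom on fragments, all listed transcripts and list A libraries alone.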

Additional observations from a re-analysis of the deposited data

How the results depend on the processing

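There were 3 libraries a group and 2 transcript lists, and 21 channel genes had 3 fragments or fewer in every library, which is at or under the floor. The count of 0 channel genes at the study's thresholds, and of 0 at an adjusted p of 0.05, was also 0 in every alternative run except those named here. Leaving out each library in turn gave 0 to 2 and 0 to 6 genes, and the highest counts came without NMDA replicate 1, when only list B libraries remained in the NMDA group. Kcnk3, Kcna2, Kcna5, Kcnc4 and Scn7a were among the 6. A fold change of 2 on the FPKM + 1 scale with an unadjusted p of 0.05 gave 5. Higher genes at an unadjusted p of 0.05 (main count 3) numbered 0 with upper-quartile scaling, 1 with median-of-ratios scaling, 6 with limma-voom and 0 to 4 with a library left out, 0 without SCF replicate 1 or 3. Lower genes (main count 7) numbered 4 in list A alone, an alternative chosen after seeing the data, and 0 to 10 with a library left out, with 0 without SCF replicate 2, 1 without NMDA replicate 3, 2 without SCF replicate 3, 3 without SCF replicate 1 and 4 without NMDA replicate 2.

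With the replicate number as a block, 4 lower and 2 higher genes had an unadjusted p of 0.05 or less. The labels give only a number, the libraries did not pair, and the block changed no other call.

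The median log2 fold change (main value -0.06) was -0.13 with a pseudocount of 0.1, -0.13 with limma-voom, -0.0086 in list A alone and -0.10 to -0.04 with a library left out. The log2 ratio of the summed channel genes (main value 0.04) changed sign with upper-quartile scaling (-0.082), median-of-ratios scaling (-0.034), all listed transcripts (-0.00022), without Kcnv2 (-0.11, chosen after seeing the data) and with a library left out (-0.0028 to 0.089). Family ratios that changed sign were, with upper-quartile and median-of-ratios scaling, Cav γ (-0.055 and -0.0069), calcium- and sodium-activated (-0.077 and -0.029), Kir (-0.049 and -0.00074) and Kv pore (-0.11 and -0.066). With all listed transcripts these were calcium- and sodium-activated (-0.029) and Kv pore (-0.011). In list A alone they were Cav α2δ (0.20), Cav γ (-0.18), calcium- and sodium-activated (-0.14), Kv accessory (-0.0046) and Nav α (0.27). On recovered fragments they were Kir (-0.030) and the noncoding genes (-0.56). With a library left out the ranges that crossed 0 were -0.024 to 0.20 for Cav γ, -0.072 to 0.14 for calcium- and sodium-activated, -0.038 to 0.10 for Kv pore, -0.36 to 0.14 for Nav α and -0.077 to 0.45 for the noncoding genes. In list A alone the fold change of Kcnk3 was -0.19 and that of Scn7a 0.21. The causes were not tested.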
